A study of Canis lupus familiaris and Dasypus novemcinctus and Ornithorhynchus anatinus with 3 samples.

Results

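The genes described are those whose symbol is ZNF followed by a number and which were listed once in both the dog and the armadillo table of a study of pregnant endometrium, the lining of the uterus. They number 118 of the 8854 genes listed once in both tables, and 54 of them also had a line in the platypus table. The study sequenced messenger RNA of this tissue in dog and armadillo, both eutherian (placental) mammals, and in the egg-laying platypus. Each species gave 1 library of pregnant tissue, and the labels name no treatment and no altered genotype. They also give no strain, age, stage of pregnancy or number of animals. With 1 library per species no difference has a replicate check, species and library cannot be told apart, and no p-value is given.

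Zinc finger proteins fold short loops around zinc ions, and most proteins with a ZNF name carry rows of C2H2 fingers that read DNA sequence. Many also carry a KRAB domain, which recruits the scaffold protein TRIM28 and, through it, histone methyltransferases and heterochromatin proteins to silence the bound site. KRAB zinc finger genes lie in clusters, duplicate often and differ between mammals, and many of their targets are transposable elements. Other ZNF genes have no KRAB domain, are kept across vertebrates and work as activators, as chromatin partners or on RNA.

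Gene counts summed to 13625468 reads for dog, 13218476 for armadillo and 2243556 for platypus. Levels are CPM, counts per 1000000 of that sum, and fold changes on the log2 scale used a pseudocount of 1 CPM. Intervals are exact 95% intervals that cover counting error only. A count of 0 allows up to 3 reads, which is 0.220 CPM in dog, 0.227 CPM in armadillo and 1.34 CPM in platypus. Every line of the armadillo table has at least 1 read, so a ZNF gene without reads there could not be a member. Genes that every cell uses were listed at 0 in some tables, among them EEF2 and TPT1 in dog and RPS15 and RPS25 in platypus, so a listing at 0 is reported as such. Cell type markers differed between the libraries, and in bulk tissue fewer cells of a type and less RNA per cell cannot be told apart. All 3 epithelial markers listed for both eutherians exceeded a 4-fold difference in favour of dog, while both smooth muscle markers, both endothelial markers and 1 of 2 stromal markers exceeded it in favour of armadillo. Against platypus, all 4 epithelial markers listed in both were higher in dog and all 3 smooth muscle markers were lower. In armadillo 2 of 4 epithelial markers were higher than in platypus, and of 3 smooth muscle markers 1 was higher and 1 lower. Of 4 endothelial markers VWF, ESAM and PLVAP were listed at 0 in platypus, and CDH5 stood at 20.1 CPM. The part of these markers in the folds against platypus was not tested. Of the 5 uterine genes checked, the progesterone receptor gene PGR was listed under its symbol only in platypus. HOXA11 stood at 11.5 CPM in dog, and HOXA10 at 14.3 CPM in armadillo and 30.8 CPM in platypus. ESR1 stood at 8.22 CPM in dog and 956 CPM in platypus and was not listed under its symbol in armadillo. MSX1 stood at 3.16 CPM in dog and 2.42 CPM in armadillo against 643 CPM in platypus.

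The ZNF genes had lower median levels than all genes by reads in both eutherian libraries. In dog 98 of 118 (83.1%) reached 2 CPM, against 79.3% of all genes listed once in both tables, and in armadillo 109 of 118 (92.4%), against 84.7%. The median was 14.1 CPM in dog (quartiles 4.53 and 34.3, range 0 to 193), against 25.5 CPM over all genes. In armadillo it was 16.1 CPM (quartiles 7.72 and 33.9, range 0.454 to 280), against 22.4 CPM over all genes. Together the 118 genes took 3302 CPM (95% interval 3271 to 3332) in dog and 3385 CPM (95% interval 3354 to 3417) in armadillo, about 0.330% and 0.339% of reads. With median-of-ratios scaling, which puts the genes listed in all 3 tables on a common typical level, the sums were 2633 CPM in dog and 3374 CPM in armadillo. The 10 highest genes held 39.0% of that sum in dog and 39.8% in armadillo. ZNF831 and ZNF541 were listed at 0 in dog.

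Levels of different genes can be compared per gene length only in dog, whose table allowed the length of each gene model to be recovered. The median dog level was 8.14 CPM per kilobase of gene model (RPKM; quartiles 3.12 and 17.3), against 16.0 RPKM over all genes. ZNF706, with a gene model of only 245 bases, was the highest at 130.0 RPKM. ZNF326, part of a complex that couples transcription elongation to splicing, followed at 124 RPKM. ZNF207, which binds spindle microtubules and the checkpoint protein BUB3, stood at 86.9 RPKM. ZNF622, a factor of large ribosomal subunit assembly, had 68.9 RPKM and ZNF330, a nucleolar protein, 53.7 RPKM. Among the next were ZNF238 (a transcriptional repressor now named ZBTB18) at 51.2 RPKM and ZNF532 at 48.7 RPKM. Of the 5 highest genes, 4 thus have known roles in RNA, ribosomes or the spindle. By reads, without correction for length, the 10 highest in dog were ZNF532, ZNF326, ZNF207, ZNF259, ZNF644, ZNF622, ZNF238, ZNF638, ZNF598 and ZNF410. The corresponding armadillo genes were ZNF521, ZNF532, ZNF638, ZNF207, ZNF330, ZNF384, ZNF76, ZNF277, ZNF407 and ZNF259.

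Dog and armadillo were compared to ask how far the levels of this family agree between these eutherians. Across the 118 genes the Spearman correlation of CPM was 0.61, against 0.63 over all 8854 genes. The points share 1 pair of libraries and depend on gene length. Dog gene length itself had a correlation of 0.49 with dog CPM and 0.50 with armadillo CPM over the 116 ZNF genes with a length, against 0.20 and 0.24 over 8332 genes. With dog levels per length the correlation with armadillo CPM was 0.43 over those 116 genes and 0.50 over the 8332. The median log2 fold of dog over armadillo was -0.07 for the ZNF genes and 0.00 for all genes, and 61 of 118 ZNF genes (51.7%) lay within 2-fold, against 46.0% of all genes.

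**Figure D1:**
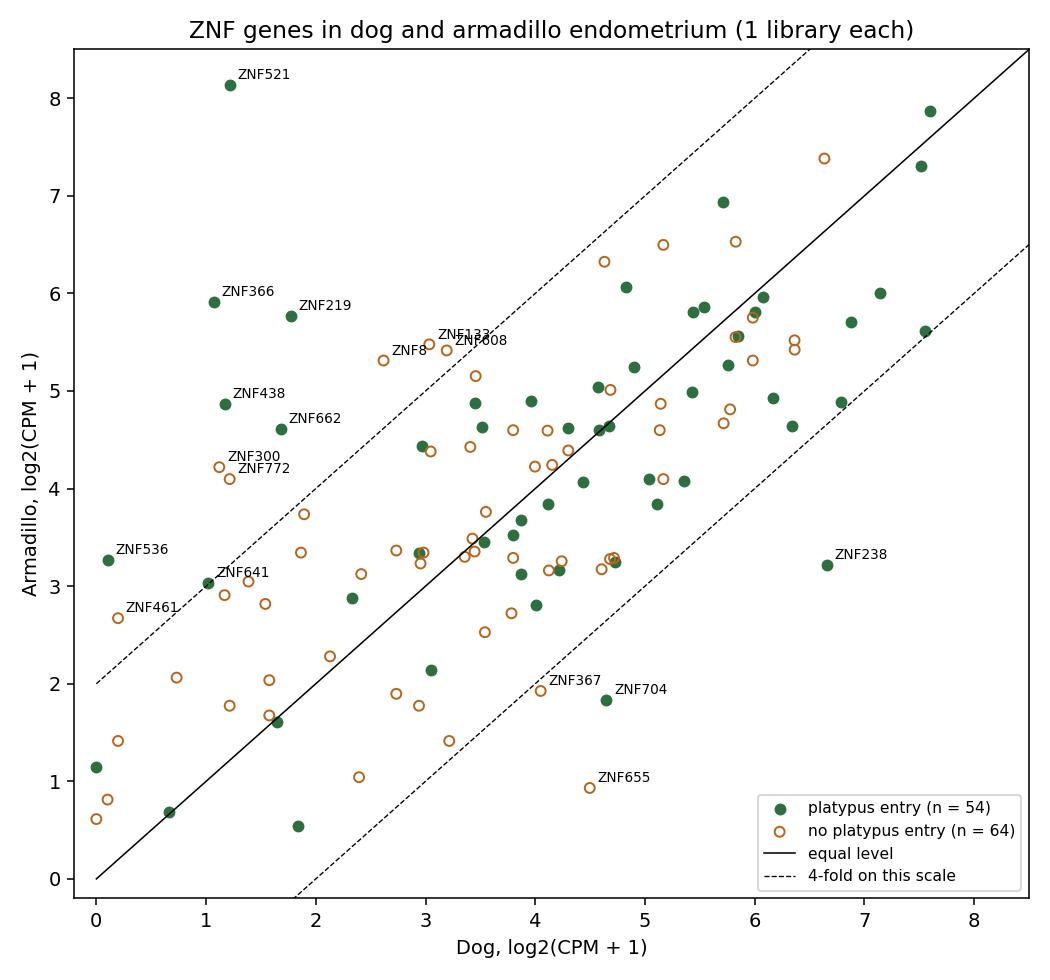
Each point is 1 ZNF gene, with its dog level on the horizontal and its armadillo level on the vertical axis, both as log2(CPM + 1); dashed lines mark 4-fold and labelled genes passed the limit. Most of the 118 genes lie between the dashed lines, 4 lie below them (higher in dog) and 13 above (lower in dog).

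The limit for a difference was a 4-fold change with at least 5 CPM in the higher library, a level that 105 of the 118 ZNF genes reached in at least 1 of the 2 libraries. On this limit 4 ZNF genes (3.39%) were higher in dog, where the share over all 8854 genes was 12.6%. Another 13 (11.0%) were lower in dog, against 13.2% of all genes. The share higher in dog lay below the background and the share lower in dog was near it; the differences between these shares were not tested. Scaling by median-of-ratios moves every log2 fold of dog over armadillo by -0.32 and gave 3 higher (background 9.76%) and 15 lower (background 15.2%). The nearest genes on either side of the limit were ZNF367 (log2 fold 2.12) and ZNF326 (1.93) among those higher in dog, and ZNF641 (-2.01) and ZNF667 (-1.84) among those lower.

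ZNF521, a transcription cofactor of blood and mesenchymal progenitors, had the largest difference. It stood at 1.32 CPM in dog (18 reads) and 280 CPM in armadillo (3699 reads), and was 212-fold higher in armadillo (95% interval 134 to 358). It was the highest ZNF gene by reads in armadillo and ranked 113 of 118 per length in dog. ZNF423, its close relative and a partner of SMAD proteins in BMP signalling, stood at 56.5 CPM in dog and 46.2 CPM in armadillo and did not pass the limit.

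ZNF366, known from dendritic cells and as a co-repressor of nuclear receptors, stood at 1.10 CPM in dog and 59.4 CPM in armadillo, 53.9-fold higher in armadillo (95% interval 32.5 to 96.8). ZNF219, a partner of SOX9 in cartilage, had 2.42 CPM in dog and 53.6 CPM in armadillo. ZNF438 had 1.25 CPM in dog and 28.2 CPM in armadillo. ZNF536, a repressor of neuronal differentiation, was at 1 read in dog and 114 reads (8.62 CPM) in armadillo. These 5 genes all had a platypus line, but ZNF536 had 1 read there (0.446 CPM), a level that could not be told from 0. By the limit that selected them, each was lower in dog than in armadillo. Stromal and vessel markers moved the same way, with COL3A1 at 535 CPM in dog and 7623 CPM in armadillo and the endothelial gene PLVAP at 66.8 CPM in dog and 7268 CPM in armadillo. Leukocyte markers also did, with CSF1R at 8.81 CPM in dog and 113 CPM in armadillo. Dog listed 2 stromal, 3 endothelial and 3 leukocyte markers and armadillo 5, 3 and 4, and all were above 0. Over the genes listed in both, the 2 stromal markers summed to 626 CPM in dog and 7956 CPM in armadillo, the 2 endothelial markers to 77.1 CPM in dog and 7713 CPM in armadillo and the 3 leukocyte markers to 13.1 CPM in dog and 134 CPM in armadillo. Of the smooth muscle markers, MYH11 and TAGLN summed to 23.3 CPM in dog and 21802 CPM in armadillo. Epithelial and cell cycle markers went the other way. The 3 epithelial markers listed in both summed to 2541 CPM in dog and 550 CPM in armadillo. The 2 cell cycle markers summed to 865 CPM in dog and 23.9 CPM in armadillo. The part of all these markers in these results was not tested.

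The other 8 genes lower in dog were ZNF300, ZNF662, ZNF772, ZNF8, ZNF461, ZNF133, ZNF608 and ZNF641, at log2 folds between -3.10 and -2.01. ZNF8 stood at 5.14 CPM in dog and 38.7 CPM in armadillo. ZNF133 stood at 7.19 CPM in dog and 43.6 CPM in armadillo. ZNF461 had 2 reads in dog and 71 in armadillo. Of the 13 genes lower in dog 4 had dog gene models under 700 bases, among them ZNF461 with 235 bases, ZNF300 with 356 and ZNF133 with 537, against 13 of the 101 genes that passed neither limit. Armadillo gene lengths were not used here, so the part of gene model length in these folds was not tested.

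ZNF655, ZNF238, ZNF704 and ZNF367 made up the 4 ZNF genes higher in dog. ZNF655 stood at 21.6 CPM in dog and 0.908 CPM in armadillo (12 reads), a 23.8-fold difference (95% interval 13.4 to 46.5). ZNF238 stood at 100.1 CPM in dog and 8.32 CPM in armadillo, 12.03-fold higher in dog (95% interval 9.90 to 14.7). ZNF704 had 24.1 CPM in dog and 2.57 CPM in armadillo, and ZNF367 had 15.6 CPM in dog and 2.80 CPM in armadillo. Under median-of-ratios scaling ZNF367 did not pass the limit (log2 fold 1.82) and the other 3 genes did.

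**Figure D2:**
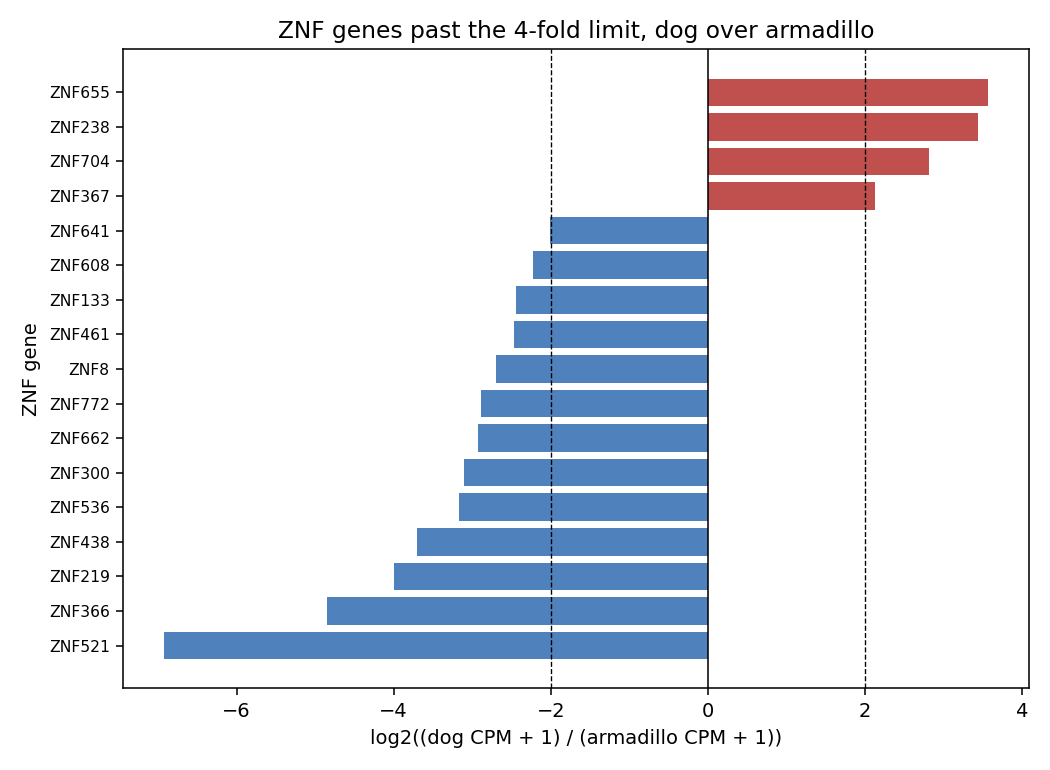
Bars give the log2 fold of dog over armadillo, with 1 CPM added to each level, for the 17 ZNF genes past the 4-fold limit (dashed lines); red bars are higher in dog and blue bars lower in dog. ZNF655 has the largest positive value, 3.56, and ZNF521 the largest negative one, -6.92.

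A line in the platypus table under the same symbol was found for 54 of the 118 ZNF genes, 45.8%. The share was 72.1% of the 8736 other genes listed once in dog and armadillo. Among other zinc finger families it was 12 of 14 ZBTB genes, whose proteins pair a BTB domain with C2H2 fingers, 7 of 8 KLF genes, 3 of 5 ZSCAN and ZKSCAN genes and 1 of 4 ZFP genes. A missing symbol can be a gene without that name in the platypus annotation, and whether the gene itself is missing was not tested. Of the 54 ZNF genes with a line, 44 had at least 1 platypus read. The platypus table held 73 ZNF symbols listed once, against 175 in dog and 185 in armadillo. Symbols that occur more than once in a table were left out, so a gene called not listed may be one of those. ZNF symbols listed once in dog and not listed once in armadillo numbered 57. Of them 44 reached 2 CPM in dog, led by ZNF503 at 147 CPM.

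ZNF genes that lie beside another zinc finger gene in dog had a platypus line in fewer cases. In the RefSeq dog gene table (assembly UU_Cfam_GSD_1.0, used only for gene order) 106 of the 118 symbols were found. Of these, 28 (26.4%) had another gene with a ZNF, ZFP, ZSCAN, ZKSCAN or ZIM symbol as a direct protein-coding neighbour, against 1.63% of 7659 other genes. A platypus line was present for 6 of the 28 (21.4%), and for 42 of the 78 without such a neighbour (53.8%). Of those 78, 28 had a neighbour with a numbered placeholder name, which may hide a zinc finger gene. Among them 12 (42.9%) had a platypus line, as did 30 of the 50 (60.0%) that had neither kind of neighbour. ZNF genes beside another zinc finger gene included ZNF461 and ZNF567, which are next to each other, ZNF212 and ZNF282, and ZNF646 and ZNF668.

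**Figure D3:**
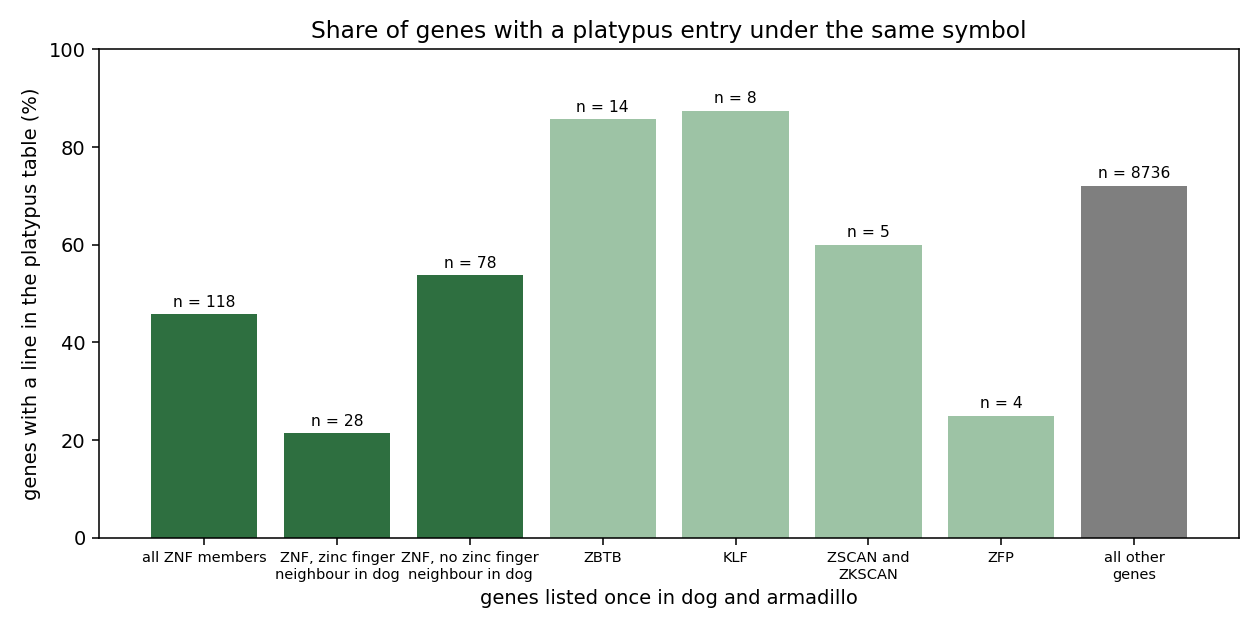
Bars give the percentage of genes listed once in dog and armadillo that also had a line in the platypus table under the same symbol, with the number of genes above each bar. ZNF genes stand at 45.8%, those with a zinc finger neighbour in dog at 21.4%, and all other genes at 72.1%.

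Neighbouring zinc finger genes also had the lower medians. In dog their median was 5.09 RPKM (quartiles 3.09 and 11.4), against 11.2 RPKM (quartiles 3.18 and 18.0) for the ZNF genes without such a neighbour. In armadillo the medians were 8.66 CPM and 23.3 CPM, without correction for length. The quartiles overlapped, and the highest genes were ZNF777 at 22.5 RPKM beside another zinc finger gene and ZNF706 at 130.0 RPKM without one. ZNF genes with a platypus line had a median of 10.1 RPKM in dog (quartiles 2.98 and 18.3) against 7.05 RPKM (quartiles 3.26 and 16.5) for those without. By reads the medians were 21.7 CPM and 9.94 CPM in dog and 23.6 CPM and 9.27 CPM in armadillo. The dog gene models of those with a platypus line were longer, with a median of 2016 bases against 1497. The difference by reads was larger than the one per length, and the part of gene length in this was not tested.

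**Figure D4:**
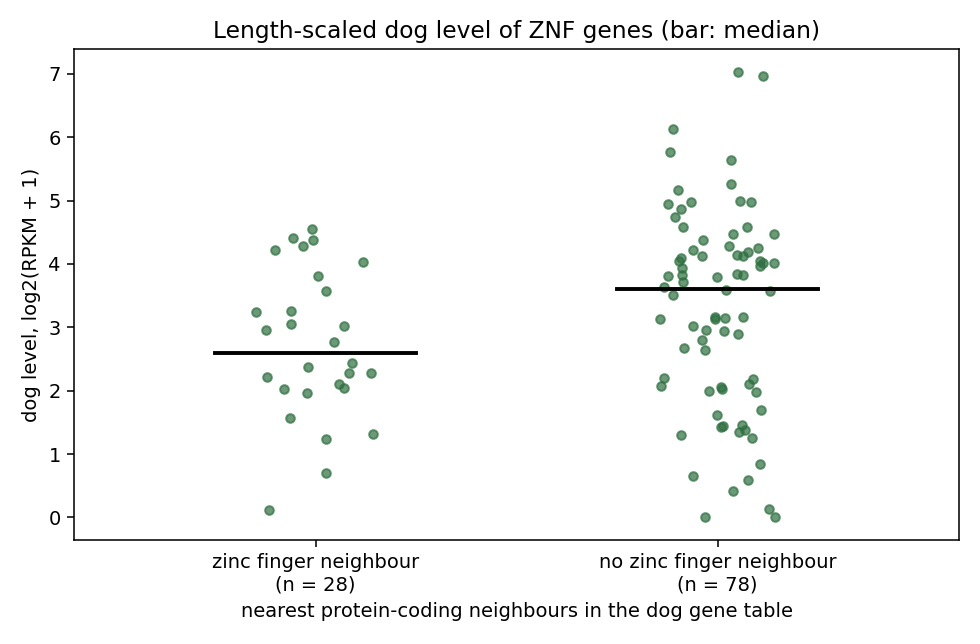
Each point is the length-scaled dog level of 1 ZNF gene, as log2(RPKM + 1), for the 28 genes with and the 78 genes without a zinc finger neighbour in the dog gene table; black lines are medians (5.09 and 11.2 RPKM before the log) and points are spread sideways only for visibility. The groups overlap over most of their range, and the highest points lie in the group without a zinc finger neighbour.

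The 54 genes listed in all 3 tables were set against platypus to describe levels in an egg-laying species. They summed to 2094 CPM (95% interval 2070 to 2118) in dog, 2038 CPM (95% interval 2014 to 2062) in armadillo and 1770 CPM (95% interval 1716 to 1826) in platypus. This order depended on the scaling, since with median-of-ratios factors the same 54 genes summed to 1669.5 CPM in dog, 2031 CPM in armadillo and 2125 CPM in platypus. In platypus 39 of them reached 2 CPM and 10 were listed at 0, which is 18.5% against 25.6% of all genes listed in the 3 tables. The rank correlation of levels with platypus was 0.20 for dog and 0.21 for armadillo over the 54 genes, against 0.46 and 0.38 over all matched genes. Genes at 2 CPM or more in both libraries gave 0.32 for dog (34 ZNF genes), against 0.31 over all such genes. For armadillo they gave 0.15 (37 ZNF genes), against 0.31. With this filter the gap to all genes was absent for dog, where the value over all genes also fell, and remained for armadillo. These values rest on smaller and different sets of genes, and the differences between them were not tested. Between dog and armadillo the same 54 genes had a correlation of 0.54. The 10 highest genes held 76.6% of the platypus sum, with ZNF706, ZNF207, ZNF330, ZNF652, ZNF326, ZNF217, ZNF414, ZNF827, ZNF771 and ZNF238 in that order by reads.

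**Figure D5:**
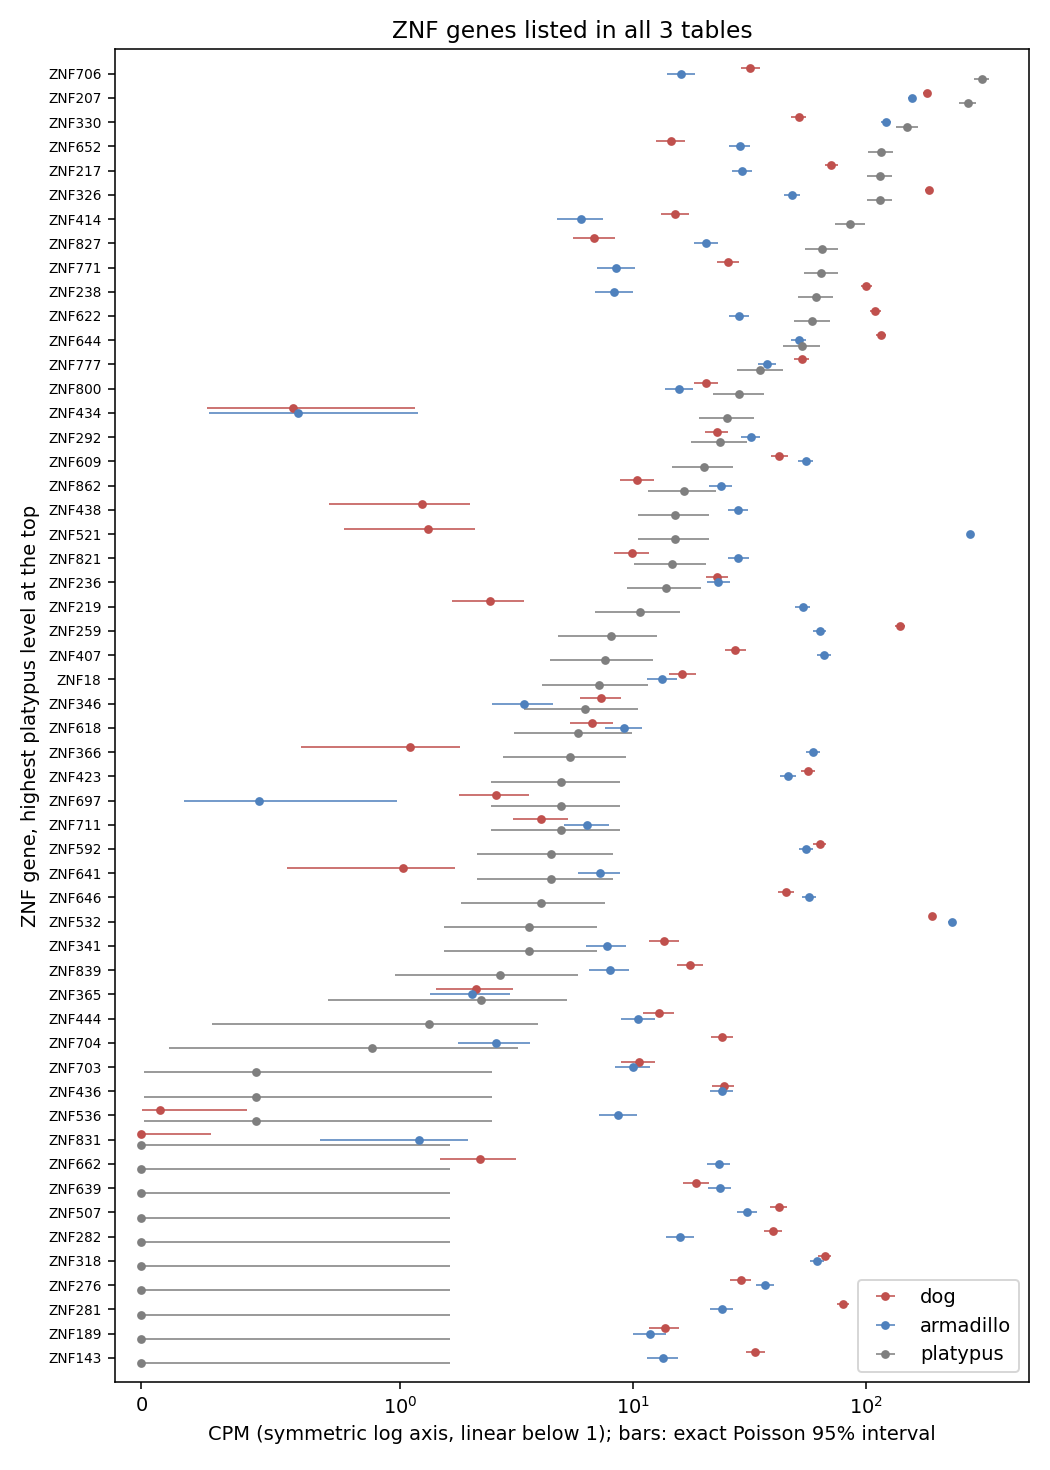
Rows are the 54 ZNF genes listed in all 3 tables, ordered by platypus level, and points give CPM in dog (red), armadillo (blue) and platypus (grey) with exact Poisson 95% intervals. ZNF207 is high in all 3 libraries, ZNF706 is highest in platypus, and the 10 lowest rows are listed at 0 in platypus.

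On the 4-fold limit 18 of 54 ZNF genes (33.3%) were higher in dog than in platypus, against a background of 32.0%, and 7 (13.0%) were lower in dog, against 9.93%. For armadillo over platypus 22 (40.7%) were higher, against 36.1%, and 5 (9.26%) were lower, against 11.0%. Both comparisons use the same platypus library, and in both the counts were near the background. The median log2 fold was 0.70 for dog over platypus (all genes 0.61) and 0.91 for armadillo over platypus (all genes 1.06). Scaling by median-of-ratios moves these folds by -0.59 and -0.27. Of the genes called higher, 8 in dog and 9 in armadillo were listed at 0 in platypus.

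ZNF143 and ZNF281 were among the genes listed at 0 in platypus. ZNF143, an activator of small nuclear RNA and many other promoters, stood at 33.5 CPM in dog and 13.4 CPM in armadillo. No fold is given for genes listed at 0, since RPS15 was listed at 0 in platypus too. ZNF281, which binds GC-rich promoters, stood at 79.9 CPM in dog and 24.0 CPM in armadillo. ZNF318 (66.5 CPM in dog and 61.6 CPM in armadillo), ZNF507, ZNF282, ZNF276, ZNF639 and ZNF189 were also listed at 0 in platypus and above the 4-fold limit in both eutherians. ZNF662 was at 2.20 CPM in dog and 23.4 CPM in armadillo, and ZNF831 was listed at 0 in dog and at 1.21 CPM in armadillo.

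With platypus reads present, ZNF532 had one of the largest differences, at 193 CPM in dog and 233 CPM in armadillo against 3.57 CPM (8 reads) in platypus. Its ratio was 54.0 for dog over platypus (95% interval 27.4 to 125) and 65.2 for armadillo over platypus (95% interval 33.1 to 151). ZNF592 stood at 63.1 CPM in dog, 55.2 CPM in armadillo and 4.46 CPM in platypus. These proteins and ZNF687 form a chromatin complex with ZMYND8, and ZNF687, which was not listed in platypus, stood at 62.2 CPM in dog and 52.9 CPM in armadillo. All 3 genes of this complex lay within 2-fold between dog and armadillo. ZNF259, now named ZPR1, had 139.9 CPM in dog, 63.2 CPM in armadillo and 8.02 CPM in platypus. ZNF423 (56.5, 46.2 and 4.90 CPM in dog, armadillo and platypus), ZNF646 (45.5, 57.0 and 4.01 CPM), ZNF703, ZNF436 and ZNF444 were also above the limit in both eutherians. Of these, ZNF703 and ZNF436 had 1 platypus read each (0.446 CPM) and ZNF444 had 3 (1.34 CPM), levels that a count of 0 allows. ZNF704 (24.1 CPM in dog and 2 reads in platypus) and ZNF839 (17.6 and 2.67 CPM) passed it in dog. ZNF366 (59.4 CPM in armadillo and 5.35 CPM in platypus), ZNF407 (66.0 and 7.58 CPM), ZNF536 and ZNF219 (53.6 and 10.7 CPM) passed it in armadillo. Under median-of-ratios scaling ZNF839 (log2 fold 1.84) and ZNF219 (1.97) did not pass.

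Fewer ZNF genes were higher in platypus. ZNF706 stood at 31.9 CPM in dog and 16.1 CPM in armadillo against 314 CPM in platypus, 9.85-fold higher in platypus than in dog (95% interval 8.73 to 11.1) and 19.5-fold higher than in armadillo (95% interval 16.7 to 22.8). ZNF434, now named ZSCAN32, had 8 reads each in dog (0.587 CPM) and armadillo (0.605 CPM) against 57 (25.4 CPM) in platypus. ZNF414 had 15.1 CPM in dog and 5.98 CPM in armadillo against 85.6 CPM in platypus. ZNF827 (6.83 CPM in dog and 64.6 CPM in platypus), ZNF652 (14.5 and 115 CPM) and ZNF438 (1.25 and 15.2 CPM) passed the limit against dog, and ZNF771 (8.47 CPM in armadillo and 64.2 CPM in platypus) passed it against armadillo. ZNF238 was also lower in armadillo, at 8.32 CPM against 61.1 CPM in platypus, while its level in dog was 100.1 CPM. ZNF521 stood at 15.2 CPM in platypus, above dog, and the armadillo level was 18.5-fold higher than that of platypus.

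No limit was passed in any of the 3 pairs by 21 of the 54 genes. Of these, 9 lay within 2-fold in every pair on the scale with 1 CPM added. ZNF365, ZNF697 and ZNF831 stayed under 5 CPM in all 3 libraries, so none of them could pass. ZNF697 had a log2 fold of -2.02 for armadillo over platypus and was held back only by that level. The same counts over all genes were not made, so 21 and 9 are given only as a description. ZNF644, a partner of the histone methyltransferases EHMT1 and EHMT2, had 116 CPM in dog, 51.3 CPM in armadillo and 53.0 CPM in platypus. ZNF777 stood at 53.0 CPM in dog, 37.5 CPM in armadillo and 35.2 CPM in platypus. ZNF292 had 22.8 CPM in dog, 32.0 CPM in armadillo and 23.6 CPM in platypus. ZNF365 was low in all 3 libraries, at 2.13 CPM in dog, 2.04 CPM in armadillo and 2.23 CPM (5 reads) in platypus. The 9 genes within 2-fold also included ZNF207, ZNF236, ZNF346, ZNF618, ZNF711 and ZNF800. Without the added CPM 8 of the 9 did, ZNF346 being the exception, and 7 of the 9 also did under median-of-ratios scaling, ZNF207 and ZNF800 being the exceptions. The group past no limit further held ZNF18, ZNF217, ZNF326, ZNF330, ZNF341, ZNF609, ZNF622, ZNF697, ZNF821, ZNF831 and ZNF862. Under median-of-ratios scaling 3 of these passed a limit as higher in platypus, ZNF330 against dog and ZNF217 and ZNF697 against armadillo.

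Genes chosen for roles in RNA, ribosomes and the spindle had reads in every library in which they were listed, apart from ZNF318 in platypus. In armadillo that is true of every gene listed, and only 2 of the 118 ZNF genes were listed at 0 in dog. In platypus 1 of 7 such role genes was listed at 0, against 10 of the 54 ZNF genes. None of the 8 role genes listed in both eutherians passed the 4-fold limit between dog and armadillo. ZNF326 (186 CPM in dog and 48.0 CPM in armadillo) and ZNF622 (109.6 and 28.5 CPM) came close. Over all genes 12.6% were higher and 13.2% lower in dog, and the counts for role lists of this size are given only as a description. ZNF207 had 182 CPM in dog, 157 CPM in armadillo and 272 CPM in platypus. ZNF330 had 51.5 CPM in dog, 122 CPM in armadillo and 150 CPM in platypus. ZNF638, an RNA and DNA-binding protein that silences retroviral DNA, stood at 98.4 CPM in dog and 166 CPM in armadillo, and ZNF598, a ubiquitin ligase that senses collided ribosomes, at 81.4 CPM in dog and 41.9 CPM in armadillo. ZNF346, which binds double-stranded RNA, was low in all 3, at 7.27 CPM in dog, 3.40 CPM in armadillo and 6.24 CPM in platypus.

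None of 5 promoter factors without a KRAB domain passed the limit between dog and armadillo, where 17 of all 118 ZNF genes did. Over all genes 12.6% were higher and 13.2% lower in dog, and 5 genes are too few to tell a difference from these shares. ZNF148 stood at 55.7 CPM in dog and 45.9 CPM in armadillo, ZNF384 at 55.8 CPM in dog and 91.4 CPM in armadillo, and ZNF76, a close relative of ZNF143, at 34.9 CPM in dog and 89.3 CPM in armadillo. Of 7 co-regulators of development and epithelia listed in both, ZNF367 was higher and ZNF521 lower in dog (14.3% each way, near the shares over all genes). ZNF217, which works with the CoREST and CtBP co-repressors, had 71.0 CPM in dog, 29.4 CPM in armadillo and 115 CPM in platypus. ZNF703, known from luminal breast epithelium, had 10.6 CPM in dog and 9.99 CPM in armadillo against 1 read in platypus. ZNF516 stood at 12.8 CPM in dog and 5.60 CPM in armadillo. The SUMO ligase gene ZNF451 (51.6 CPM in dog and 24.4 CPM in armadillo) and ZNF335, part of a histone methyltransferase complex (62.2 and 38.7 CPM), did not pass the limit and were not listed in platypus.

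Among 10 KRAB repressors chosen by name, ZNF496 was the gene listed in both dog (25.3 CPM) and armadillo (8.78 CPM). Of the 175 ZNF symbols listed once in dog, 118 were listed once in armadillo, and which of them carry a KRAB domain was not analysed here. ZNF445, a guardian of imprinted methylation, stood at 26.6 CPM in dog, and ZNF274, which recruits the methyltransferase SETDB1, at 14.8 CPM, and neither was listed under its symbol in armadillo. ZNF350 (18.7 CPM), ZNF10 (6.88 CPM), ZNF420 (3.71 CPM) and ZNF382 (4.24 CPM) were listed in armadillo and not in dog. ZNF202 was at 10.3 CPM in dog and 1 read in platypus.

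Chromatin partners of KRAB proteins were set beside the ZNF genes. Of 28 such genes 17 were listed in both eutherians, and 3 of them (17.6%) passed the limit as higher in dog, against 12.6% of all genes, and 1 (5.88%) as lower, against 13.2%. TRIM28, the scaffold, stood at 281 CPM in armadillo and 119 CPM in platypus and was not listed under its symbol in dog. SETDB1 stood at 151 CPM in dog and 91.0 CPM in armadillo. The nucleosome remodeller CHD4 had 545 CPM in dog, 332 CPM in armadillo and 693 CPM in platypus. Genes higher in dog were UHRF1, which guides maintenance of DNA methylation (323 CPM in dog and 11.95 CPM in armadillo), the histone methyltransferase gene SUV39H2 (34.9 and 3.25 CPM) and the heterochromatin protein gene CBX5 (94.6 and 14.1 CPM). CBX3 was the gene lower in dog, with 2 reads there and 81.2 CPM in armadillo. Cell cycle markers were higher in dog as well, with RRM2 at 669 CPM in dog and 12.1 CPM in armadillo and CDK1 at 196 CPM in dog and 11.8 CPM in armadillo; both of the markers listed in both tables passed the limit, and their part in this result was not tested. Against platypus 7 of 18 partners (38.9%) were higher in dog, where all genes stood at 32.0%, and 4 of 16 were higher in armadillo, where all genes stood at 36.1%, with 1 lower in each. DNMT3B and MORC2 were listed at 0 in platypus.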

How the data were processed

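Total RNA was purified on columns, treated with DNase and made into Illumina libraries, per the labels' protocols. The submitters' processing notes name Bowtie; its version and the builds and annotation used were not given in the sources used here. For dog the authors deposited estimated counts per gene (516 not whole, rounded here), together with scores (mapped bases, and a relative abundance of unstated unit). The authors deposited raw counts for the other species. Totals in the last line of the dog and armadillo tables were left out. Dog gene lengths were recovered as reads divided by relative abundance and by a fitted constant. Within 0.1 bases this gave whole lengths for 100.0% of 4785 genes with more than 500 reads.

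Symbols were matched in upper case, using those listed once per table. CPM was computed on the sum of gene counts. CPM of a gene is not corrected for length, so folds between species contain any difference in gene model length. Levels have exact Poisson and ratios exact conditional binomial 95% intervals. Genes were named by rule: the 10 highest in each library, for each pair the 10 largest folds each way, genes with a platypus line, and the role and co-repressor lists. The members and lists were chosen with earlier results of these data known. ZNF503, the cell type markers and the genes at 0 named as a check fall outside that rule, as do neighbours named as examples. The alternatives were median-of-ratios (over 3490 genes at 2 CPM or more in every library), upper-quartile and matched-gene scaling, other pseudocounts, limits and filters. Protein features were not analysed here, because no protein table was used. The call rule and intervals were also run on simulated counts that held planted folds and counting error only. That run had no variation between animals, in gene length or in mapping, so it cannot test differences between species. Python 3.11.15, numpy 2.4.6, pandas 2.3.3 and scipy 1.17.1 were used.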

Additional observations from a re-analysis of the deposited data

How the results depend on the processing

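No paired analysis was possible because each species has 1 library. Scaling left the counts of ZNF genes past the 4-fold limit within 1.5 times, except that 8 genes instead of 5 were lower in armadillo than in platypus with median-of-ratios factors and with totals over matched genes. A filter of 2 CPM in both libraries gave 3 higher (3.19%, all genes 13.3%) and 5 lower (5.32%, all genes 9.72%) for dog over armadillo, 6 higher (17.6%, all genes 25.9%) and 4 lower (11.8%, all genes 11.1%) for dog over platypus and 9 higher (24.3%, all genes 22.9%) for armadillo over platypus. Without genes listed at 0, 10 were higher in dog (22.7%, all genes 28.7%) and 13 in armadillo (29.5%, all genes 27.5%) than in platypus. A 2-fold limit gave 24 higher (20.3%, all genes 26.7%) and 28 lower (23.7%, all genes 22.4%) for dog over armadillo, and 11 lower in dog (20.4%, all genes 16.4%) and 10 lower in armadillo (18.5%, all genes 19.1%) than in platypus. Over the ZNF genes, the median log2 fold of dog over armadillo, -0.07, turned to 0.10 with the 2 CPM filter. Rank agreement was 0.46 for dog and armadillo with dog levels per length (118 genes, those at 0 included). For dog and platypus it was 0.32 with the 2 CPM filter (all genes 0.31) and 0.34 without zeros. With the 2 CPM filter it was 0.59 for dog and armadillo (all genes 0.49) and 0.15 for armadillo and platypus (all genes 0.31). Summed levels with median-of-ratios factors were 2633 CPM in dog over 118 genes and 2125 CPM in platypus over 54, where dog had 1669.5 CPM. The share with a platypus line was 37.3% when at least 1 platypus read was required. The 2 CPM filter takes out genes that are low in either library, and the shares of ZNF genes given above for that filter fell along with the counts. The share lower in armadillo than in platypus rose, from 9.26% to 10.8% (4 genes, all genes 14.5%). Over all genes some shares rose too, as from 12.6% to 13.3% for those higher in dog than in armadillo. The causes of these changes were not tested. At platypus depth a level under 1.34 CPM could not be told from 0.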
